A study of Rattus norvegicus with 82 samples.

Results

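The natriuretic peptide genes were followed in rat heart after a dose of vinblastine, vincristine or colchicine, 3 drugs that bind tubulin. The genes were taken by name: the peptides Nppa and Nppb, the receptors Npr1, Npr2 and Npr3, and the processing enzymes Corin and Furin. Of these 7 genes, 6 were found in the annotation of the array's probe sets and all 6 passed the filter on dim genes, out of 11319 genes tested. Corin, the protease that cleaves the Nppa precursor, was not found in that annotation and has no value here. Each of the 6 genes had 1 probe set (Nppa 1367564_at, Nppb 1367616_at, Npr1 1368201_at, Npr2 1387099_at, Npr3 1369273_a_at, Furin 1367778_at).

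Hearts came from male Wistar rats of the Crl:Wi(Han) stock, and each of the 82 Affymetrix arrays held the heart RNA of 1 animal. The age of the animals and the region of the heart taken were not given in the sources used here. A single intravenous dose was given in 0.9% saline: vinblastine at 0.5 or 3 mg/kg, vincristine at 0.1 or 1 mg/kg, or colchicine at 0.2 or 2 mg/kg. Controls received saline alone, and hearts were taken 6 or 24 h after the dose. This gave 14 groups, of 6 animals each except vincristine 0.1 mg/kg, which had 5 at each time. The doses differed between the compounds, so their values are given side by side without a test between compounds, and the 6 treated groups of a time share 1 saline group.

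Nppa encodes atrial natriuretic peptide and Nppb encodes brain natriuretic peptide, the hormones that heart muscle releases when its wall is stretched or the cell is stressed. In the adult heart Nppa is made mainly in the atria and falls to a low level in the ventricle after birth, from which it can rise again under load, whereas Nppb is known as a gene that ventricular muscle switches on within hours. Npr1 is the guanylyl cyclase receptor through which both peptides raise cGMP, Npr2 is the matching receptor for C-type natriuretic peptide, and Npr3 binds all these peptides and removes them. Furin is the convertase that cuts the Nppb precursor in the secretory pathway.

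Nppa and Nppb lie next to each other on rat chromosome 5 on the same strand, with 12176 bases between their start sites in the RefSeq annotation of GRCr8. The 250 bases before each start are printed because these 2 neighbours had the largest changes of the 6 genes, Nppb from 6 h and Nppa at 24 h. Capitals mark matches to motifs of factors known at these promoters: TGATAA and AGATAA for GATA factors, AAGTG for NKX2-5, and CATTCC for TEAD factors (the M-CAT element), each searched on both strands. The Nppa window is chr5:163711934-163712183 and the Nppb window is chr5:163699758-163700007, both on the plus strand and both printed 5′ to 3′.
Nppa: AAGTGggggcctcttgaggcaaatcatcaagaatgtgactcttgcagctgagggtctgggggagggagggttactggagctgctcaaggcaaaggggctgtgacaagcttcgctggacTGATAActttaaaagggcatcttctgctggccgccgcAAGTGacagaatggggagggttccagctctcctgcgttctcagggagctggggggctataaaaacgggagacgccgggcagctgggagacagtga
Nppb: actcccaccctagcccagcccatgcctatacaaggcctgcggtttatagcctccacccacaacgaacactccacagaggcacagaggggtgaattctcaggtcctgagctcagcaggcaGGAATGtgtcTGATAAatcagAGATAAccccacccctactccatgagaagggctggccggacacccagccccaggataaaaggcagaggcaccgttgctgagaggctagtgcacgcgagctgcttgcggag
The Nppa window held TGATAA from 132 to 127 bases before the start, and AAGTG from 250 to 246 and from 95 to 91 bases before it. In the Nppb window the M-CAT element, read as GGAATG on the printed strand, stood from 131 to 126 bases before the start, with TGATAA from 121 to 116 and AGATAA from 110 to 105. No match overlapped another. Among 33469 RefSeq windows of the same length, 7.97% held TGATAA, 10.3% AGATAA, 12.1% CATTCC and 40.6% held AAGTG. The AP-1 motif TGANTCA and the CArG box, found in 6.34% and 1.5% of all windows, had no exact match in either window. Only exact matches were searched. The letters ctttaaaagg, which follow TGATAA in the Nppa window, come close to the CArG box but are no exact match, so they were not marked. A match here is a description of the letters and no evidence of binding.

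Before the results, 2 sets of arrays need to be named. On 10 arrays the whole profile lay nearer the median profile of another group than that of its own, by a distance ratio above 1.3. These are called the arrays set apart, and each array was left out of the median of its own group. The labels of the arrays set apart were kept as given, and whether any label is wrong was not tested. The rule picks arrays far from their own group, so leaving them out tends to lower the spread within groups. A larger change or a smaller p-value without them is therefore no independent support. Another 33 arrays were nearer another group by a smaller ratio. On 5 arrays the atrial light chain Myl7 exceeded 1000, against a highest value of 801 and a median of 81.1 on the others, and these are called the arrays with atrial signal: saline 6 h replicate 2, saline 24 h replicate 1, vincristine 0.1 mg/kg replicate 1 at 6 h and replicate 5 at 24 h, and vinblastine 0.5 mg/kg 24 h replicate 4. The heart label held on every array: Myl2 of the ventricle lay between 21952 and 31330, and Tnnt2 between 20272 and 27527. Where leaving out either set changed a call or a direction of a peptide value given here, or moved that value by over 1.5 times, the value without it is given as well. In bulk tissue, fewer cells of a type and less RNA per cell cannot be told apart.

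Across the study the 2 peptide genes had the largest changes, and the receptors and Furin changed by small amounts where they changed at all. P-values set each difference against the spread between animals within groups, pooled over all 14 groups and moderated across genes. At the lower dose of each compound no member passed the threshold of an adjusted p under 0.05 in limma's moderated test, at either time. Few genes passed there at all: 0.0353% of all genes for vinblastine 0.5 mg/kg at 6 h (0.00883% higher and 0.0265% lower) and 0.274% for colchicine 0.2 mg/kg at 6 h (0.247% higher and 0.0265% lower). In the other 4 lower-dose comparisons 0% of genes passed. At an unadjusted p under 0.05 the 6 lower-dose comparisons held between 227 and 757 genes. With vinblastine 3 mg/kg at 6 h, 2 of 6 members rose (Nppb and Furin) where 15.7% of all genes rose, and 2 fell (Npr2 and Npr3) where 7.67% fell (23.3% in either direction). Vincristine 1 mg/kg at 6 h raised 1 member, Nppb, with 2.05% of all genes higher, 1.25% lower and 3.3% in either direction. Colchicine 2 mg/kg at 6 h raised Nppb and Furin, with 4.89% of all genes higher, 4.37% lower and 9.27% in either direction.

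At 24 h Nppa passed with all 3 compounds. With vinblastine 3 mg/kg it was the 1 member that rose, where 5.29% of all genes rose, 4.28% fell and 9.58% passed in either direction. Nppa and Nppb rose with vincristine 1 mg/kg, where 12% of all genes rose, 18.4% fell and 30.4% passed in either direction. Colchicine 2 mg/kg raised 3 members (Nppa, Nppb and Npr1) against 19.3% of all genes and lowered 2 (Npr2 and Npr3) against 25.3%. In that comparison 44.6% of all genes passed in either direction, so 5 of 6 members stands against a high background. Saline at 24 h did not differ from saline at 6 h for any member, and 0.00883% of all genes passed there (1426 genes at an unadjusted p under 0.05).

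**Figure D1:**
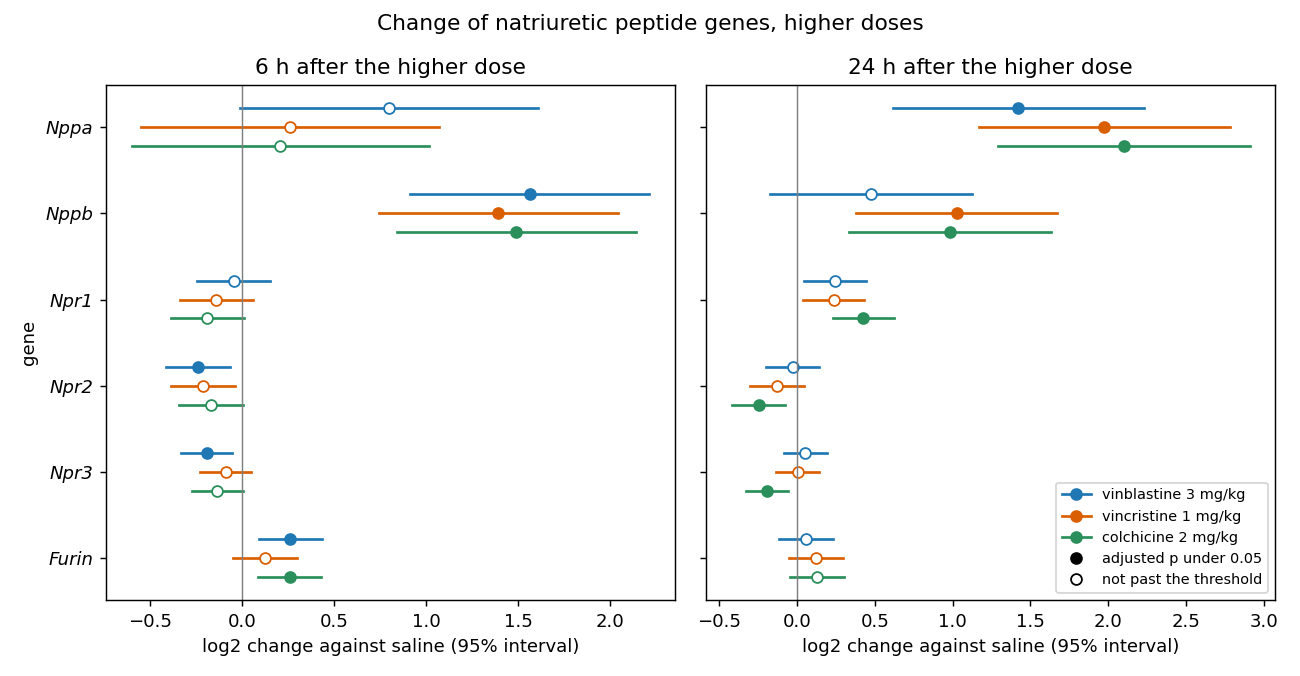
Log2 change against saline of the same time (x axis) for the 6 genes (y axis) at the higher dose of each compound, at 6 h on the left and 24 h on the right; lines are 95% intervals and filled points passed an adjusted p under 0.05. Nppb is filled for all 3 compounds at 6 h and Nppa for all 3 at 24 h, while the largest value of a receptor or Furin is the 0.43 of Npr1 with colchicine at 24 h.

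Nppb rose at 6 h with the higher dose of all 3 compounds. In saline hearts at 6 h its intensity was 2204 at the lowest, 2856 at the median and 5377 at the highest. With vinblastine 3 mg/kg the corresponding values were 7834, 9043 and 11526, so every treated heart lay above every saline heart. The log2 change was 1.56 ± 0.33 (SE, n = 6 and 6), or 2.95-fold with a 95% interval from 1.88 to 4.63, and the adjusted p was 0.000273.

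The other 2 compounds gave like values at 6 h. Vincristine 1 mg/kg gave Nppb intensities of 4040, 8998 and 13302 (lowest, median and highest), with all 6 animals above the saline mean but the lowest within the saline range. That lowest animal, replicate 3, was an array set apart, nearest to saline at 24 h. The log2 change with vincristine was 1.39 ± 0.33, adjusted p = 0.0122. Without vincristine replicate 4, the highest animal, the log2 change was 1.25 with an adjusted p of 0.0661, so this call depended on 1 animal.

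Colchicine 2 mg/kg at 6 h gave Nppb values of 9564, 10944, 11371, 12243 and 15502 in 5 animals and 2187 in replicate 4. The 5 lay above every saline heart, and replicate 4 lay just below the lowest saline heart (2204). That array was one of those set apart, nearest to the group of vinblastine 0.5 mg/kg at 24 h. The log2 change of Nppb was 1.49 ± 0.33 over all 6 animals, adjusted p = 0.00121, and 1.89 with an adjusted p of 9.62e-11 once all arrays set apart were left out. Under the same omission vincristine 1 mg/kg gave 1.60 (adjusted p = 4.57e-08) and vinblastine 3 mg/kg 1.61 (adjusted p = 1.68e-08). The rule that set arrays apart favours such smaller p-values.

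Nppb was higher at the higher dose of each compound at 6 h, with ranges that overlapped in all 3 cases. The higher dose exceeded the lower by 1.63 ± 0.33 on the log2 scale for vinblastine (adjusted p = 0.0023), by 1.47 ± 0.34 for vincristine (adjusted p = 0.0109) and by 1.77 ± 0.33 for colchicine (adjusted p = 0.000156). In these dose comparisons 5.81%, 1.61% and 4.47% of all genes were higher, 2.71%, 1.2% and 4.78% were lower, and 8.53%, 2.81% and 9.25% passed in either direction, in that order. Against saline the lower doses gave log2 changes of -0.07, -0.08 and -0.28, none of which passed. Among the animals on vinblastine 0.5 mg/kg, 5 lay between 1827 and 2934 and replicate 6 stood at 10059. That array was set apart and was nearest to colchicine 2 mg/kg at 6 h. Without the arrays set apart the change against saline was -0.41 for vinblastine 0.5 mg/kg (adjusted p = 0.887) and -0.40 for colchicine 0.2 mg/kg (adjusted p = 0.682), and without those with atrial signal it was -0.27 for vincristine 0.1 mg/kg (adjusted p = 0.998). The vinblastine dose difference did not pass the threshold when only those 2 groups were fitted (adjusted p = 0.101).

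At 24 h Nppb rose with vincristine 1 mg/kg and colchicine 2 mg/kg. Saline hearts ran from 2236 through a median of 3677 to 5428. Vincristine 1 mg/kg ran from 5899 through 7093 to 9022, above every saline heart, with a log2 change of 1.03 ± 0.33 (adjusted p = 0.0114). Colchicine 2 mg/kg ran from 4497 through 7716 to 9546, with a log2 change of 0.99 ± 0.33 (adjusted p = 0.00976), and only replicate 1, an array set apart, lay within the saline range.

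With vinblastine 3 mg/kg the Nppb change at 24 h did not pass. Its values ran from 3183 through 5384 to 7110 and overlapped saline, and the log2 change was 0.47 ± 0.33, with a 95% interval from -0.17 to 1.12 and an adjusted p of 0.428. Vincristine gave a dose difference at 24 h of 1.13 ± 0.34 (adjusted p = 0.00988), where 12.3% of all genes were higher. Colchicine gave a dose difference of 0.18 ± 0.33 (interval -0.47 to 0.83, adjusted p = 0.707), and 0.49 with an adjusted p of 0.0619 without the arrays set apart, of which each of its groups held 1. With colchicine 0.2 mg/kg Nppb ran from 4575 through 5897 to 11844 (replicate 6, an array set apart), all 6 animals above the saline mean, and its log2 change of 0.81 ± 0.33 had an unadjusted p of 0.0154 and an adjusted p of 0.99985. Without the arrays set apart that change was 0.62.

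Nppa rose at 24 h with the higher dose of all 3 compounds. In saline hearts at 24 h its intensity was 991 at the lowest, 1608 at the median and 2807 at the highest. Vinblastine 3 mg/kg gave 3190, 4512 and 6286, and vincristine 1 mg/kg gave 3857, 6664 and 11708, so in both groups every heart lay above every saline heart. The log2 change was 1.42 ± 0.41 for vinblastine (2.68-fold, interval 1.53 to 4.69, adjusted p = 0.0144) and 1.98 ± 0.41 for vincristine (3.93-fold, interval 2.25 to 6.89, adjusted p = 9.78e-05).

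Colchicine 2 mg/kg at 24 h gave the highest Nppa values of the study as a group. Of its 6 animals, 5 lay between 7783 and 11342, above every saline heart, and replicate 1 read 1867, within the saline range. Replicate 1 was an array set apart, with the highest distance ratio of all (3.2), and was nearest to colchicine 0.2 mg/kg at 24 h. The log2 change of Nppa was 2.10 ± 0.41 with it (adjusted p = 1.43e-05) and 2.49 when all arrays set apart were left out (adjusted p = 1.36e-08).

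A dose difference of Nppa at 24 h passed for 2 of the 3 compounds. The difference between doses was 1.64 ± 0.43 on the log2 scale for vincristine (adjusted p = 0.00254) and 1.74 ± 0.41 for colchicine (adjusted p = 0.000304), where 12.3% and 18.8% of all genes were higher, 11.6% and 22.7% lower, and 23.9% and 41.5% passed in either direction. For vinblastine it was 1.07 ± 0.41 with an adjusted p of 0.113, where 3.92% of all genes were higher, 1.56% lower and 5.49% passed in either direction, and it passed without the arrays with atrial signal (1.19, adjusted p = 0.0322) and without those set apart (1.12, adjusted p = 0.0286). The lower doses lay 0.35 (vinblastine), 0.33 (vincristine) and 0.36 (colchicine) above saline on the log2 scale, with 95% intervals that all included 0. The vincristine value rested on replicate 5, an array both set apart and with atrial signal, which read 6049 where the others read 1493 to 1751. Without the arrays set apart it was -0.04 (adjusted p = 0.989), so its direction turned, and without those with atrial signal it was 0.09.

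At 6 h Nppa spread widely within groups and no change passed. Saline hearts had values of 798, 1109, 1120, 1417, 1751 and 7743, the last being replicate 2, an array with atrial signal. Vinblastine 3 mg/kg had 5 animals between 1586 and 3054 and replicate 1 at 10010, an array set apart and nearest to colchicine 2 mg/kg at 24 h. Its log2 change was 0.80 ± 0.41 (adjusted p = 0.148). Without the arrays with atrial signal this became 1.24 with an adjusted p of 0.00641, and without the arrays set apart it became 0.44 with an adjusted p of 0.484, so whether the 6 h change of Nppa with vinblastine passed depended on single arrays. Vincristine 1 mg/kg gave 0.26 (interval -0.55 to 1.07) and colchicine 2 mg/kg 0.21 (interval -0.60 to 1.02). Without the arrays with atrial signal, which here leaves out saline replicate 2, these became 0.71 (adjusted p = 0.246) and 0.65 (adjusted p = 0.277), and without the arrays set apart colchicine gave 0.41 (adjusted p = 0.509).

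**Figure D2:**
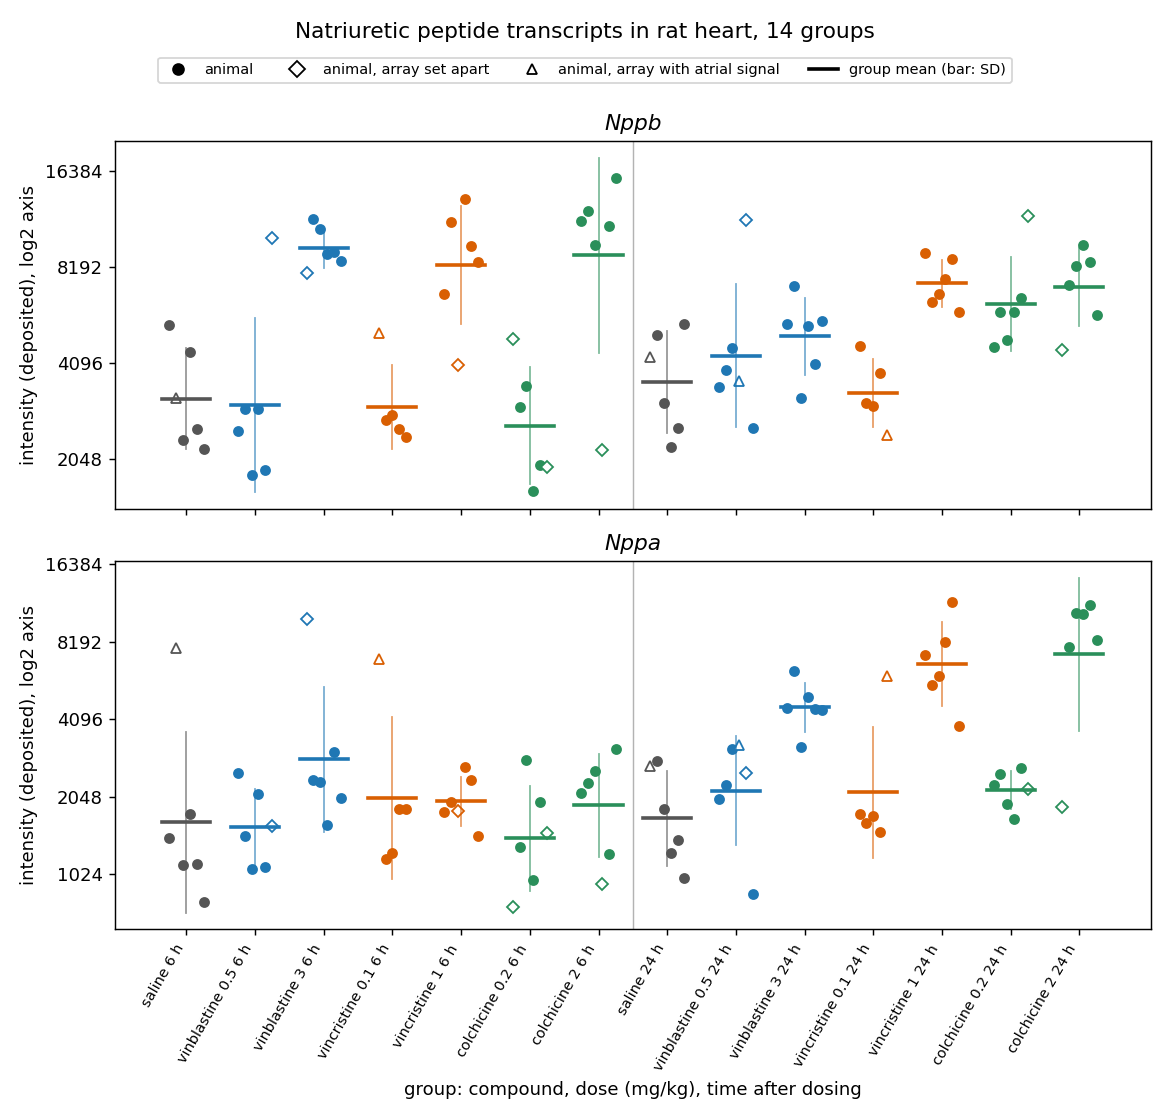
Deposited intensity (y axis, log2 scale) of Nppb (top) and Nppa (bottom) in each animal of the 14 groups (x axis), with the mean of log2 values and its SD; open diamonds are arrays set apart, triangles are arrays with atrial signal (vincristine 0.1 mg/kg 24 h replicate 5 was both). The higher doses stand high for Nppb at 6 h, where the vinblastine 3 mg/kg animals sit between 7834 and 11526, and for Nppa at 24 h, where the vincristine 1 mg/kg animals sit between 3857 and 11708.

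Because Nppa is an atrial transcript, the atrial marker list is given beside it. Of 6 atrial markers, 5 were found (Myl4, Myl7, Sln, Kcna5 and Gja5) and none was listed at 0. Their summed intensity at 24 h was 419 to 2493 in saline hearts, 538 to 727 with vinblastine 3 mg/kg, 415 to 573 with vincristine 1 mg/kg and 400 to 678 with colchicine 2 mg/kg. The highest saline heart was replicate 1, an array with atrial signal, and no treated heart of these 3 groups had a higher sum. The median sums were 570 in saline hearts and 607, 510 and 584 with vinblastine, vincristine and colchicine. Whether atrial tissue had a part in the 24 h rise of Nppa was not tested. Without the arrays with atrial signal the log2 change of Nppa was 1.56, 2.11 and 2.23 in the same order. Of those arrays only saline 24 h replicate 1 belongs to these comparisons, so the omission does not test the part of atrial tissue. Of the 5 markers, Gja5 rose with vinblastine (0.48) and colchicine (0.92), Kcna5 fell with colchicine (fell by 0.72 on the log2 scale), and Myl4, Myl7 and Sln did not pass in any of the 3.

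Within groups, the animals with more atrial signal had more Nppa. The 5 arrays with Myl7 above 1000 had Nppa values of 2688, 3262, 6049, 7028 and 7743. The cut at 1000 does not mark a clear gap, since the nearest arrays on each side read 801 and 1348. Below it stayed colchicine 2 mg/kg 6 h replicates 3 and 6, with Myl7 at 621 and 801. The relation was computed over the 77 arrays under the cut on group-centred log2 values. There Pearson's r between Myl7 and Nppa was 0.359 (permutation p = 0.00433, adjusted over 6 relations 0.00866). Spearman's rho was 0.371 (permutation p = 0.00359, adjusted 0.00718), and r was 0.316 without the 2 arrays farthest from the median of Myl7. For Sln and Nppa r was 0.322 (permutation p = 0.00971, adjusted 0.0146) and rho 0.295 (permutation p = 0.0202, adjusted 0.0303), with r at 0.280 without the 2 farthest arrays. For Myl4 and Nppa r was 0.301 (permutation p = 0.0293, adjusted 0.0352) and rho 0.252 (permutation p = 0.0531, adjusted 0.0637), with r at 0.288 without the 2 farthest. Over the 68 arrays left when those set apart were dropped as well, Myl7 and Nppa had r = 0.357 (permutation p = 0.0134, adjusted 0.0268) and rho = 0.347 (permutation p = 0.0131, adjusted 0.031). There Sln kept r = 0.331 (permutation p = 0.0205, adjusted 0.0308) with rho at 0.293 (permutation p = 0.0359, adjusted 0.0538). The relation of Myl4 did not pass there, with r = 0.237 (permutation p = 0.134, adjusted 0.161) and rho = 0.184 (permutation p = 0.205, adjusted 0.246). Over the 77 arrays the relation of Nppb to Myl7 did not pass (r = 0.0985, permutation p = 0.57, adjusted 0.57; rho = -0.0378, permutation p = 0.761, adjusted 0.761; r = 0.0357 without the 2 farthest).

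**Figure D3:**
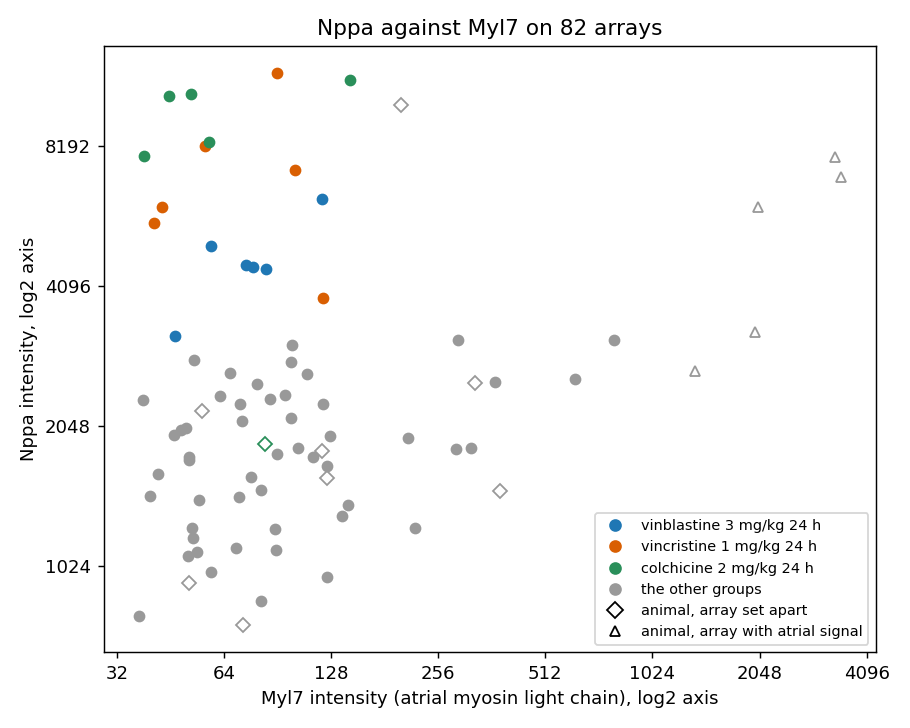
Nppa (y axis) against the atrial light chain Myl7 (x axis), deposited intensities on log2 axes, 1 point per array for all 82 arrays; colours mark the higher doses at 24 h, diamonds arrays set apart and triangles arrays with atrial signal. The coloured points stand high on Nppa with Myl7 at 145 or less, apart from the colchicine animal at 1867 on Nppa, while the triangles lie to the right with Nppa between 2688 and 7743.

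Whether the response to the higher dose differed between the 2 times was tested directly, by subtracting the 6 h log2 change from the 24 h log2 change. For Nppa this difference was 1.72 ± 0.57 on the log2 scale with vincristine (adjusted p = 0.0366), 1.89 ± 0.57 with colchicine (adjusted p = 0.0131) and 0.62 ± 0.57 with vinblastine (adjusted p = 0.579). In the same tests 3.53%, 6.3% and 1.78% of all genes had a higher change at 24 h, 8.73%, 12.6% and 2.66% a lower one, and 12.3%, 18.9% and 4.44% passed in either direction. For Nppb the differences were -1.09 ± 0.46 with vinblastine, -0.36 ± 0.46 with vincristine and -0.50 ± 0.46 with colchicine, and none passed (adjusted p = 0.158, 0.679 and 0.507). Among the alternatives run, a smaller Nppb change at 24 h passed only without the arrays set apart, for vinblastine (-1.14, adjusted p = 0.00739) and colchicine (-0.78, adjusted p = 0.0457), with vincristine at -0.57 there (adjusted p = 0.197). These calls depend on a rule that removes arrays far from their own group.

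The time difference of Nppa depended in part on saline hearts of 6 h. Without saline 6 h replicate 2, its difference was 1.27 with vincristine, adjusted p = 0.11. Without the 6 arrays whose description carries the ending _2, which include that one, it was 1.27 with vincristine (adjusted p = 0.0823) and 1.34 with colchicine (adjusted p = 0.0611). Without the arrays with atrial signal it was 1.40 (adjusted p = 0.0477) and 1.58 (adjusted p = 0.0173). With vinblastine the difference was 0.18 without saline 6 h replicate 2, 0.31 without the arrays with atrial signal (adjusted p = 0.753) and 0.98 without those set apart (adjusted p = 0.234). The vincristine call was also lost on leaving out any of 7 other single arrays, with adjusted p between 0.0519 and 0.0726.

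Among the 14 group means, Nppa was highest with colchicine 2 mg/kg at 24 h, then vincristine 1 mg/kg and vinblastine 3 mg/kg at 24 h. The step from vincristine to vinblastine, 0.55 on the log2 scale, was the only step between neighbours that exceeded the SD of both groups, for any of the 6 genes. Nppb was highest in the 3 higher-dose groups of 6 h, whose neighbouring means differed by at most 0.10, followed by vincristine 1 mg/kg and colchicine 2 mg/kg at 24 h. The lowest mean of both peptides was that of colchicine 0.2 mg/kg at 6 h.

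Npr1, the receptor of both peptides, rose at 24 h with colchicine 2 mg/kg. At 24 h saline hearts ran from 131 through a median of 170 to 177 and colchicine 2 mg/kg hearts from 184 through 229 to 255, with no overlap. The log2 change was 0.43 ± 0.10 (adjusted p = 0.000249), and the higher dose exceeded the lower by 0.49 ± 0.10 (adjusted p = 4.25e-05). The change at 24 h exceeded that at 6 h by 0.62 ± 0.14 (adjusted p = 0.000958), the value at 6 h being -0.19 (adjusted p = 0.257). Saline hearts themselves read lower at 24 h than at 6 h (log2 change -0.23, unadjusted p = 0.0256, adjusted p = 0.348).

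The changes of Npr1 with the 2 vinca alkaloids at 24 h did not pass. Vinblastine 3 mg/kg ran from 155 through 197 to 240, with a log2 change of 0.24 ± 0.10 (interval 0.05 to 0.44, adjusted p = 0.111). Vincristine 1 mg/kg ran from 144 through 197 to 230, with a log2 change of 0.23 ± 0.10 (interval 0.04 to 0.43, adjusted p = 0.0634). In each group 5 of 6 animals were above the saline mean. Without vincristine replicate 6, the lowest animal, the change was 0.31 with an adjusted p of 0.0133, and without vinblastine replicate 5 it was 0.31 with an adjusted p of 0.0462.

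Npr2, the receptor of C-type natriuretic peptide, fell slightly in 2 comparisons. With colchicine 2 mg/kg at 24 h it ran from 231 through 268 to 335, against 292 through 335 to 354 in saline, and it fell by 0.25 on the log2 scale (SE 0.09, adjusted p = 0.0147). Without colchicine replicate 6 that call was lost (adjusted p = 0.0658). With vinblastine 3 mg/kg at 6 h it ran from 201 through 327 to 411, against 333 through 372 to 420 in saline, and it fell by 0.24 on the log2 scale (SE 0.09, adjusted p = 0.0353). The lowest value there, 201, was replicate 1, an array set apart, and without the arrays set apart the change was -0.12 with an adjusted p of 0.355. This call was lost in 9 of 24 alternatives. Among them were those without saline replicate 1, 2 or 5, without vinblastine replicate 3, and with only the compared groups in the fit (adjusted p = 0.317).

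Npr3, the clearance receptor, was dim on this array, with a mean intensity of 36.2 and above the filter's percentile on 11 of 82 arrays. With colchicine 2 mg/kg at 24 h it ran from 27.8 through 32.5 to 34.5, against 34.5 through 37.1 to 48.5 in saline. The highest treated heart (34.48) lay just below the lowest saline heart (34.52), and Npr3 fell by 0.19 on the log2 scale (SE 0.07, adjusted p = 0.018). The call was lost without saline 24 h replicate 3 (adjusted p = 0.0947). Against the lower dose the log2 change was -0.24 ± 0.07 (adjusted p = 0.00343). With vinblastine 3 mg/kg at 6 h it ran from 27.8 through 30.1 to 31.3, against 31.0 through 36.1 to 44.4 in saline, and it fell by 0.19 on the log2 scale (SE 0.07, adjusted p = 0.0361). That call was lost without any of saline replicates 1, 3 and 5 or vinblastine replicates 1, 5 and 6 (adjusted p between 0.0523 and 0.125).

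Furin rose by a small amount at 6 h. Saline hearts ran from 220 through a median of 248 to 268, vinblastine 3 mg/kg hearts from 254 through 304 to 366 and colchicine 2 mg/kg hearts from 256 through 297 to 361. The log2 change was 0.26 ± 0.09 for vinblastine (adjusted p = 0.0199) and 0.26 ± 0.09 for colchicine (adjusted p = 0.0425), with all 6 animals of each group above the saline mean and overlapping ranges. Without saline replicate 1 the log2 changes were 0.23 for both and neither passed (adjusted p = 0.0572 and 0.116). The vinblastine call was also lost without its replicate 1 or 6, and the colchicine call without saline replicate 3 or 6 or colchicine replicate 1, 2, 3 or 5.

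At 24 h no Furin change against saline passed, with log2 changes of 0.06, 0.12 and 0.13 for vinblastine, vincristine and colchicine. Between doses, Furin was higher with colchicine 2 mg/kg at 6 h (0.27 ± 0.09, adjusted p = 0.0357) and with vincristine 1 mg/kg at 24 h (0.23 ± 0.09, adjusted p = 0.0491). The vincristine call was lost in 12 of 23 alternatives, among them that without a filter on dim genes (adjusted p = 0.0577). Across the study Furin stayed between 206 and 366.

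**Figure D4:**
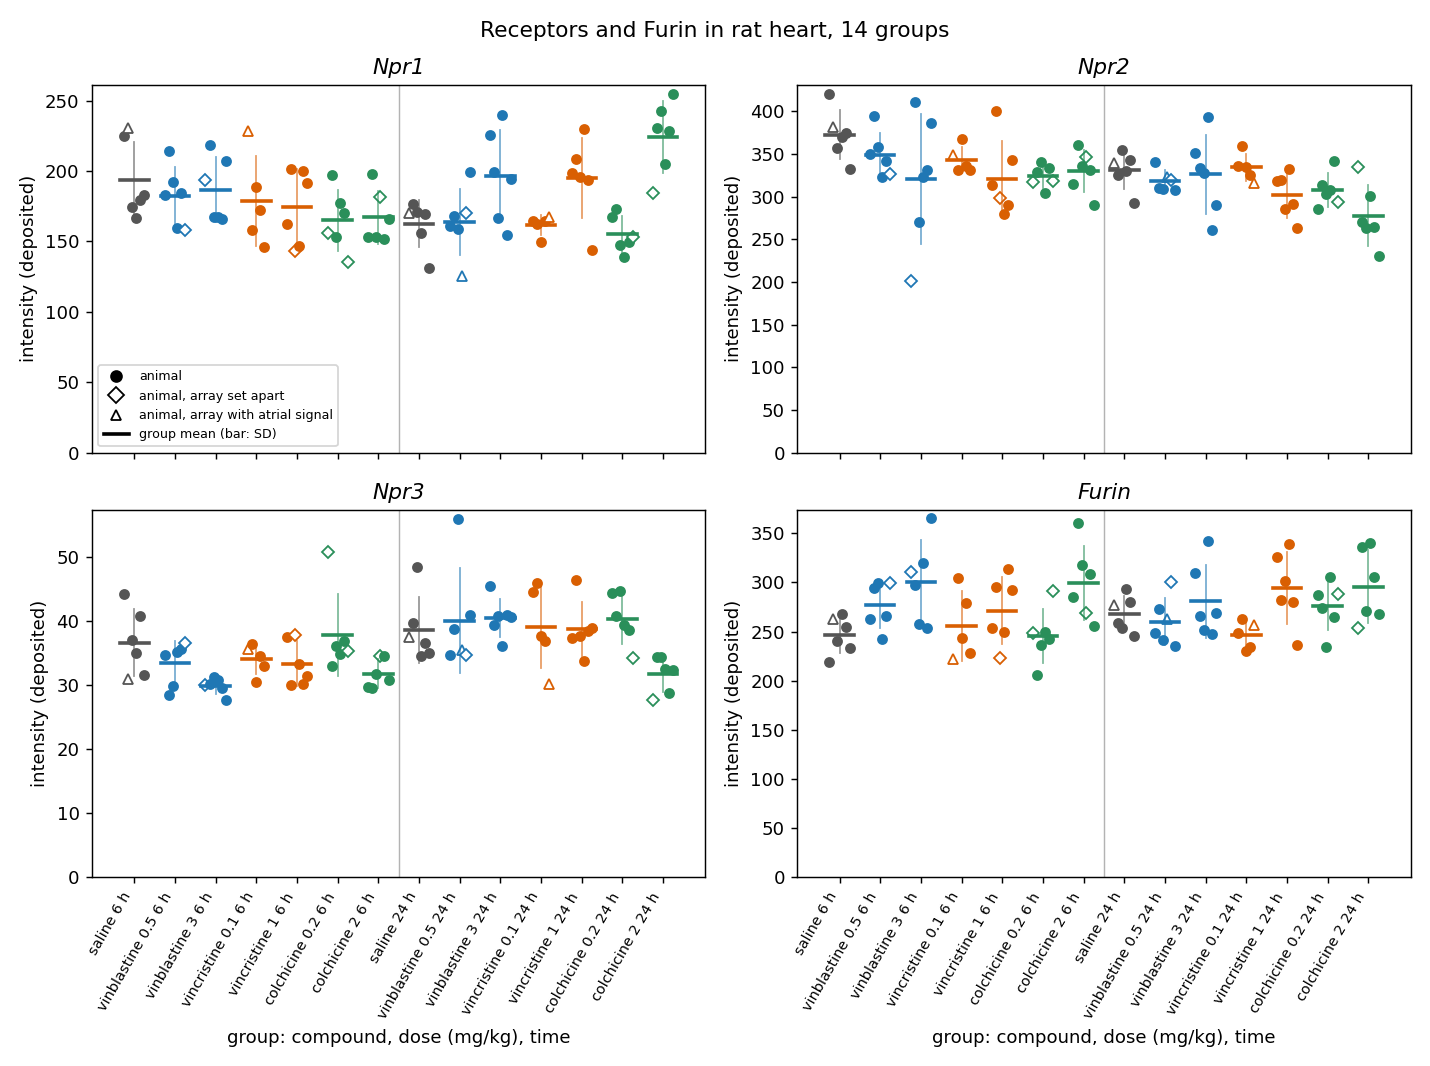
Deposited intensity (y axis, linear, from 0) of Npr1, Npr2, Npr3 and Furin in each animal of the 14 groups (x axis), with the group mean and its SD; open diamonds are arrays set apart and triangles are arrays with atrial signal. At 24 h, Npr1 with colchicine 2 mg/kg sits between 184 and 255, above the saline animals at 131 to 177, and most other groups overlap their saline group.

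Markers of other cells moved in the same groups. Of 5 neutrophil markers, all were found and 2 (S100a8 and S100a9) were tested. Csf3r, Mmp8 and Cxcr2 were below the filter, with highest values of 43, 42 and 34 on any array. The sums therefore mainly reflect S100a8 and S100a9, whose highest values were 319 and 1194. At 6 h the summed intensity of the 5 was 130 to 198 in saline hearts, 911 to 1605 with vinblastine 3 mg/kg, 129 to 862 with vincristine 1 mg/kg and 127 to 1147 with colchicine 2 mg/kg. At 24 h it was 131 to 170 in saline hearts, 201 to 260, 319 to 688 and 195 to 691 in the same order. Of 4 macrophage markers tested, 2 rose with vinblastine, 3 with vincristine and 2 with colchicine at 24 h, and 1 fell with colchicine. Of all genes, 5.29%, 12% and 19.3% rose there and 4.28%, 18.4% and 25.3% fell, in the same order of compounds. The summed level of the 5 macrophage markers at 24 h was 588 to 655 in saline hearts, 697 to 1015 with vinblastine, 657 to 860 with vincristine and 479 to 783 with colchicine, and none of these markers was listed at 0. The 3 ventricular markers summed to 42064 to 47722 with vincristine and 40373 to 52252 with colchicine at 24 h, against 45797 to 54379 in saline.

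Markers of resident cells also changed at 24 h, where Nppa and Npr1 rose. Beside the counts below, 5.29%, 12% and 19.3% of all genes rose with vinblastine, vincristine and colchicine, and 4.28%, 18.4% and 25.3% fell. Of 6 fibroblast markers, 1 rose with vinblastine 3 mg/kg, 1 rose and 2 fell with vincristine 1 mg/kg, and 2 rose and 4 fell with colchicine 2 mg/kg, the largest being Lum, which fell by 1.74 on the log2 scale with colchicine. Their summed intensity was 18073 to 22298 in saline hearts, 16205 to 20228 with vinblastine, 14076 to 19753 with vincristine and 13832 to 19376 with colchicine. Of 5 endothelial markers, 2 rose with vinblastine, 2 rose and 1 fell with vincristine, and 3 rose and 1 fell with colchicine, with sums of 4240 to 5492 in saline hearts and 4073 to 5827, 4719 to 5324 and 4328 to 5821 in the treated groups. Of 5 markers of smooth muscle and pericytes, 1 rose with each compound and 1 fell with vincristine and with colchicine (Rgs5, which fell by 1.14 on the log2 scale with colchicine), with sums of 2578 to 3506 in saline hearts and 2514 to 4373, 2291 to 3195 and 2408 to 3431 in the treated groups.

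Both red cell markers tested fell with vinblastine and vincristine at 24 h and neither passed with colchicine, with sums of 11803 to 13882 in saline hearts, 7693 to 11165 with vinblastine, 6298 to 10509 with vincristine and 8966 to 12296 with colchicine. Of 6 heart myocyte markers, 1 fell with vincristine and 2 with colchicine, and of 3 ventricular markers 2 fell with colchicine (Irx4, which fell by 1.00 on the log2 scale, and Myl3). Of 3 adipocyte markers 1 fell with each compound, and of 2 mesothelial markers 1 rose with colchicine. These counts at 24 h stand beside 4.28%, 18.4% and 25.3% of all genes lower with vinblastine, vincristine and colchicine, and 5.29%, 12% and 19.3% higher. At 6 h, where Nppb rose, 1 of 6 fibroblast markers (Tcf21) rose with each compound. Of 3 ventricular markers 1 (Irx4) fell with vinblastine and colchicine. Of 5 endothelial markers, Emcn fell with each compound and Kdr rose with vinblastine (0.32). The macrophage marker Csf1r fell with each compound. The adipocyte marker Cfd fell with vinblastine and colchicine, and Wt1 of the mesothelium and Actn2 of the myocyte rose with vinblastine. In these comparisons 15.7%, 2.05% and 4.89% of all genes rose and 7.67%, 1.25% and 4.37% fell, for vinblastine, vincristine and colchicine. The marker genes named were chosen after their values were seen. The part of these cells in the values of the natriuretic peptide genes was not tested.

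Of 6 other genes tested that process or degrade the peptides, 1 rose and 2 fell with vinblastine 3 mg/kg at 24 h (median log2 change -0.07, against -0.01 over all genes), where 5.29% of all genes rose and 4.28% fell. With vincristine 1 mg/kg 1 rose and 2 fell (median -0.05, against -0.01), where 12% rose and 18.4% fell. With colchicine 2 mg/kg 1 rose and 3 fell (median -0.12, against 0.00), where 19.3% rose and 25.3% fell. Pcsk6, a convertase of the furin family known to activate corin, ran from 712 through 944 to 1154 in saline hearts and from 372 through 430 to 474 with vincristine, with no overlap. It fell by 0.76, 1.07 and 1.01 on the log2 scale with vinblastine, vincristine and colchicine (adjusted p = 5.47e-05, 1.19e-08 and 8.98e-09).

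Dpp4, a peptidase that trims brain natriuretic peptide, fell alongside it. It ran from 148 through 182 to 203 in saline hearts at 24 h and from 57.3 through 63.5 to 122 with colchicine, and fell by 0.69, 0.88 and 1.17 on the log2 scale in the same order (adjusted p = 0.000977, 5.16e-06 and 2.42e-09), with no overlap in any of the 3. Ece1, an endothelin-converting enzyme, rose in all 3, by 0.35, 0.49 and 0.77 (adjusted p = 0.0243, 0.000228 and 1.22e-08). At 6 h Ece1 rose with vinblastine (0.59) and colchicine (0.34), and Dpp4 fell with vinblastine (fell by 0.48).

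Of the 2 tested subunit genes of soluble guanylyl cyclase, which makes cGMP in answer to nitric oxide, both fell with vinblastine 3 mg/kg at 6 h and 1 with each of the other compounds, where 7.67%, 1.25% and 4.37% of all genes fell. Gucy1a1 ran from 377 through 449 to 588 in saline hearts and from 196 through 261 to 417 with vincristine 1 mg/kg. It fell by 0.56 with vinblastine, 0.70 with vincristine and 0.55 with colchicine on the log2 scale (adjusted p = 0.00487, 0.00907 and 0.0121), and Gucy1b1, the partner subunit, fell by 0.51 with vinblastine (adjusted p = 0.00111). At 24 h Gucy1a1 fell with colchicine alone (fell by 0.82, adjusted p = 7.23e-06), and Nppc, the gene of C-type natriuretic peptide, was below the filter.

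Of the 8 cGMP effectors and phosphodiesterases tested, 2 fell with vinblastine 3 mg/kg and 2 with colchicine 2 mg/kg at 6 h, where 7.67% and 4.37% of all genes fell, and none rose or fell with vincristine 1 mg/kg. These were the cGMP-activated phosphodiesterase Pde2a, which fell by 0.37 and 0.34 on the log2 scale (adjusted p = 0.0138 and 0.0445), and Rgs2, a brake on G protein signalling that cGMP-dependent kinase activates, which fell by 0.91 and 1.01 (adjusted p = 0.0407 and 0.0418). The Rgs2 value of vinblastine includes 1 animal at 1065, against a group median of 109. At 24 h Pde9a rose with vincristine 1 mg/kg (0.30, adjusted p = 0.00519), and Irag1 fell with colchicine 2 mg/kg (fell by 0.50, adjusted p = 8.3e-05).

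Of 14 transcription factors and cofactors known at the 2 promoters, 1 rose and none fell with vinblastine 3 mg/kg at 24 h (median log2 change -0.06, against -0.01 over all genes), where 5.29% of all genes rose and 4.28% fell. With vincristine 1 mg/kg 6 fell and 1 rose (median -0.20, against -0.01), where 18.4% of all genes fell and 12% rose. With colchicine 2 mg/kg 8 fell and 1 rose (median -0.35, against 0.00), where 25.3% fell and 19.3% rose. Mef2a, a factor of the MEF2 family, ran from 1573 through 1821 to 2074 in saline hearts at 24 h and from 1115 through 1190 to 1328 with vincristine, with no overlap, and fell by 0.57 (adjusted p = 0.00025). Srf, the factor of the CArG box, fell by 0.50 and its cofactor Myocd by 0.40 in the same comparison (adjusted p = 0.000282 and 0.0169). At 6 h 3 fell and 1 rose with vinblastine, where 7.67% of all genes fell and 15.7% rose. With vincristine and with colchicine 2 fell, where 1.25% and 4.37% of all genes fell. Nkx2-5 and Mef2c both fell with all 3 compounds, Nkx2-5 by 0.44, 0.39 and 0.54 and Mef2c by 0.70, 0.48 and 0.46 for vinblastine, vincristine and colchicine.

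Hand2, named for being the 1 factor of the list that rose at 24 h once its values had been seen, rose by 0.45, 0.37 and 0.25 (adjusted p = 1.71e-05, 0.000103 and 0.00589). With colchicine at 24 h the largest falls were those of the cofactors Hopx (fell by 1.05) and Myocd (fell by 0.91) and that of Mef2a (fell by 0.81). With vinblastine at 6 h Myocd fell by 0.55 (adjusted p = 0.00162), and Tead1, named after its values were seen as the 1 factor that rose there, rose by 0.26 (adjusted p = 0.0254). Of the granule genes only Pam, which amidates peptides, was tested, and it did not pass in any of these comparisons.

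The genes with the most similar levels over the 14 group means are given as a description, since the means share arrays and scaling. The 3 genes most like Nppa were Serping1 (r = 0.983), Lrp1 (0.982) and Akip1 (0.981). Those most like Nppb were Ier5 (0.942), Bdnf (0.931) and Armcx3 (0.924). Npr1 was most like Otud5 (0.937), Xbp1 (0.935) and Tspyl2 (0.92), Npr2 like Gba2 (0.968), Npr3 like Itm2b (0.933) and Furin like Bsdc1 (0.949).

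Over the same 14 means Nppa and Nppb correlated at 0.517, and the closest members were Nppb and Furin (0.828), Nppa and Npr1 (0.725) and, inversely, Nppa and Npr2 (-0.738). Between animals, once group means were removed, Nppa and Nppb correlated over 82 arrays (r = 0.322, permutation p = 0.00336, adjusted 0.00403; rho = 0.394, permutation p = 0.00048, adjusted 0.000576; r = 0.322 without the 2 arrays farthest on Nppa). Without the arrays set apart r was 0.525 over 72 arrays. Ankrd1, a stress-responsive gene of heart muscle, correlated with Nppb (r = 0.702, permutation p = 1e-05, the smallest that 100000 permutations can give, adjusted 3e-05; rho = 0.533, permutation p = 1e-05, adjusted 6e-05; r = 0.588 without the 2 farthest). Without the arrays set apart that r was 0.342 over 72 arrays (permutation p = 0.00696, adjusted 0.00835; rho = 0.289, permutation p = 0.0247, adjusted 0.0296).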

How the data were processed

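The authors deposited 1 linear intensity value for each of 31099 probe sets and array. How probe sets were summarised and scaled is not stated in the labels, and array medians lay between 57.6 and 63.3. RNA was purified and labelled with Qiagen and Affymetrix kits, per the labels' protocols. The number of arrays limits the precision. Probe sets with 1 symbol (20826, with 436 of several symbols and 9831 not in the annotation) covered 14217 genes, each read by its brightest probe set, with symbols updated to RefSeq names (GRCr8).

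Values became log2(intensity + 16). Genes above the 40th percentile of an array in 5 or more arrays were tested (11319). A limma model (3.58.1, R 4.3.3) with 1 mean per group took in all 82 arrays (residual df 68, prior df 4.7) and gave 22 comparisons, with two-sided p-values adjusted by Benjamini-Hochberg over 11319 genes. Errors are standard errors, and folds are on the log2(value + 16) scale. Correlations between animals used group-centred values permuted within groups 100000 times, two-sided. The replicate numbers of the labels were not used as pairs: in 0 of 12 comparisons with saline did every same-numbered pair deviate together. No 2 arrays held identical values. The procedure was tested on simulated data.

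The members and gene lists were chosen with earlier results of these data known. All members are named, up to 3 genes of each list with the largest change among those past the threshold, and the 3 genes with the most similar group means, and any other gene is said to be chosen later. Of 13 alternatives, 11 were planned and 2 (without the arrays set apart, without those with atrial signal) were added after the data were examined. Promoters of Npr2 and Furin and protein sequences were not used here.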

Additional observations from a re-analysis of the deposited data

Results flagged for a closer look

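Of 84 sets of values (6 genes in 14 groups), 14 held 1 animal far from the others of its group, where chance gives about 1 in 20. Of these 14 animals' values, 7 came from arrays set apart and 4 from arrays with atrial signal. High Nppa was seen in saline 6 h replicate 2 (7743, the others 798 to 1751), vinblastine 3 mg/kg 6 h replicate 1 (10010, the others 1586 to 3054), vincristine 0.1 mg/kg 6 h replicate 1 (7028, the others 1178 to 1830) and vincristine 0.1 mg/kg 24 h replicate 5 (6049, the others 1493 to 1751). Low Nppa was seen in vinblastine 0.5 mg/kg 24 h replicate 6 (859, the others 2009 to 3262) and colchicine 2 mg/kg 24 h replicate 1 (1867, the others 7783 to 11342).

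High Nppb was seen in vinblastine 0.5 mg/kg 6 h replicate 6 (10059, the others 1827 to 2934), vincristine 0.1 mg/kg 6 h replicate 1 (5059, the others 2394 to 2820) and colchicine 0.2 mg/kg 24 h replicate 6 (11844, the others 4575 to 6516), and low Nppb in colchicine 2 mg/kg 6 h replicate 4 (2187, the others 9564 to 15502). Npr1 was low in vincristine 0.1 mg/kg 24 h replicate 3 (149) and vincristine 1 mg/kg 24 h replicate 6 (144). Npr3 was high in vinblastine 0.5 mg/kg 24 h replicate 3 (56.0) and colchicine 0.2 mg/kg 6 h replicate 1 (50.8).

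The change at 24 h differed from that at 6 h, by limma's test of the difference, for Nppa with vincristine (1.72 on the log2 scale) and colchicine (1.89) and for Npr1 with colchicine (0.62).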

How the results depend on the processing

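No called change of a member reversed under any alternative run. The count of members past the threshold moved by over 1.5 times as follows, and the cause was not tested. With quantile normalization, vinblastine 3 mg/kg at 6 h had 2 members (4 in the report) and the vincristine time difference 2 (1 in the report). With only the compared groups in the fit, which estimates the spread from fewer samples, vinblastine 3 mg/kg at 6 h had 1, colchicine 2 mg/kg at 6 h 1 (2 in the report), vinblastine 3 against 0.5 mg/kg at 6 h 0 (1 in the report), colchicine 2 against 0.2 mg/kg at 6 h 1 (2 in the report), vinblastine 3 against 0.5 mg/kg at 24 h 1 (0 in the report) and the colchicine time difference 1 (2 in the report). With array weights, the counts were 2 for vincristine 1 mg/kg at 6 h, 4 for colchicine 2 mg/kg at 6 h, 1 for vinblastine 3 against 0.5 mg/kg at 24 h, 5 for vincristine 1 against 0.1 mg/kg at 24 h (3 in the report), 1 for the vinblastine time difference (0 in the report) and 2 for the vincristine time difference. Vinblastine 3 against 0.5 mg/kg at 24 h also had 1 without the arrays of ending _2, without the arrays set apart and without those with atrial signal. Without the arrays of ending _2 the vincristine time difference had 0 and the colchicine one 1, and without the arrays set apart the vinblastine one had 1.

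Leaving out 1 animal at a time gave 1 to 4 members for vinblastine 3 mg/kg at 6 h, 0 to 1 for vincristine 1 mg/kg at 6 h, 1 to 2 for colchicine 2 mg/kg at 6 h and for colchicine 2 against 0.2 mg/kg at 6 h, 1 to 2 for vinblastine 3 mg/kg at 24 h, 2 to 3 for vincristine 1 mg/kg at 24 h, 4 to 5 for colchicine 2 mg/kg at 24 h, 2 to 4 for vincristine 1 against 0.1 mg/kg at 24 h and 0 to 2 for the vincristine time difference. The pseudocount and probe set rules changed 1 call at most each. The stricter filter on dim genes (60th percentile) gave no value for Npr3.

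With the replicate number as a block (replicate block), 131 of 132 member results kept their call and Npr1 with vincristine 1 mg/kg at 24 h passed (0.23, adjusted p = 0.0499); the numbers share no stated origin, and the correlations of same-numbered deviations ran from -0.384 to 0.451. Npr3 was above the filter's percentile on 11 of 82 arrays, which limits its values.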
